A study of Mus musculus with 8 samples.

Results

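The interferon regulatory factor (IRF) family is described here through Irf1, Irf2, Irf3, Irf5, Irf7, Irf8 and Irf9, chosen by gene name, which are 7 of the 25239 genes listed in an RNA-seq count table of intestinal epithelial cells (IECs). All 7 had counts and an adjusted p. The study asked how the absence of CD1d, and of the natural killer T (NKT) cells that need it, affects the epithelium, and it sequenced 4 CD1d-KO and 4 WT samples. IECs were sorted as EpCAM+ CD45- CD31- Ter119- cells from crypts of the proximal small intestine, with 150000 cells per sample obtained over 2 experiments. The CD1d-KO animals carry a deletion of Cd1d1 and Cd1d2 in every cell, the epithelium included, and lack NKT cells, and the WT animals are labelled C57BL/6Jax. According to the methods the mice were 7 to 10 weeks old and of both sexes, with age and sex matched between genotypes. The 8 samples came from 4 mice of each genotype, and the paper states that its mice were not littermates. No treatment is described for either genotype in this comparison. The labels do not say which sample came from which experiment.

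IRFs are transcription factors that share a DNA-binding domain and bind GAAA-containing elements known as interferon-stimulated response elements (ISREs). IRF1 is induced by interferon-gamma (IFN-γ) by way of JAK-STAT signalling and a gamma-activated site (GAS) and activates genes of antigen presentation and cell-autonomous defence, while IRF2 competes for many of the same elements and often represses them. IRF3, IRF5 and IRF7 are held in the cytoplasm until pattern-recognition receptors trigger their phosphorylation, IRF9 joins STAT2 in the ISGF3 complex downstream of type I and type III interferon, and IRF8 is best known from myeloid and B cells. In the intestinal epithelium these factors serve barrier defence against microbes and viruses.

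The promoters of the members are shown first because Irf1, Irf2 and Irf8 held a match to an interferon-related element near the start site. RefSeq windows on GRCm38.p6, the patch release that shares mm10 coordinates, ran from 250 bases before to 50 after each start, and all 7 members had at least 1 window. The ISRE was searched as GAAANNGAAA on both strands and the GAS as TTCNNNGAA, which reads the same on both strands. The sequences below give the 250 bases before the start, 5′ to 3′ on the gene's plus strand, with matches in capitals. They lie at chr11:53769764-53770013 for Irf1, chr8:46739495-46739744 for Irf2 and chr8:120736108-120736357 for Irf8.
Irf1: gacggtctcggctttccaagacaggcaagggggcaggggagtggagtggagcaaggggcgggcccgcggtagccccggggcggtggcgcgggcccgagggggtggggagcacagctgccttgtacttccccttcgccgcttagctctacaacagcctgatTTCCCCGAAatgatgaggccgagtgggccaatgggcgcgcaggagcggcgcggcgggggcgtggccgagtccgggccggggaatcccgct
Irf2: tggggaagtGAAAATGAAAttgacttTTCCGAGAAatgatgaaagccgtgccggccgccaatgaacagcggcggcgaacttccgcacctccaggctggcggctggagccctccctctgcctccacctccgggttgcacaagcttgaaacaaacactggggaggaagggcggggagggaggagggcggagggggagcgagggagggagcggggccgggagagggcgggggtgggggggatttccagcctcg
Irf8: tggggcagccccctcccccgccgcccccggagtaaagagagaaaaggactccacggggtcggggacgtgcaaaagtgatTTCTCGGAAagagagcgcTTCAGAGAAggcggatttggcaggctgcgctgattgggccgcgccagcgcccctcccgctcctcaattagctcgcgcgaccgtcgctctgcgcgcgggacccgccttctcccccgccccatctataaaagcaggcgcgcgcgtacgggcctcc
The Irf1 window held the GAS match TTCCCCGAA, which begins 90 bases before the start. The Irf2 window held both kinds, the ISRE match GAAAATGAAA at 241 bases and the GAS match TTCCGAGAA at 224 bases before the start. The Irf8 window held 2 GAS matches, TTCTCGGAA at 171 bases and TTCAGAGAA at 153 bases before the start. No match to these letters was found in the windows of Irf3, Irf5, Irf7 or Irf9, nor in the second windows of Irf1, Irf8 and Irf9. Over all 32851 windows of this length, 3.44% held the ISRE letters, 8.3% the GAS letters and 0.454% both.

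Total counts per sample ranged from 29743061 to 31629435 in CD1d-KO and from 23610266 to 29763051 in WT. The targeted gene Cd1d1 had 0 to 8 raw counts in CD1d-KO samples and 50 to 94 in WT samples, as the labels require, and Cd1d2 had at most 5 in any sample. Y-linked genes gave 6235 and 7293 counts in CD1d-KO 1 and 2 and at most 1 count in each of the other 6 samples, so sex was not balanced between genotypes. This differs from the methods, which describe sex as matched between genotypes. Of the epithelial markers, none of the 12 tested passed at an adjusted p under 0.05 in DESeq2, nor at an unadjusted p under 0.05. Summed normalised counts of T and NK cell markers were 56.2 to 170 in CD1d-KO and 113 to 704 in WT, those of B and plasma cell markers 38.1 to 65.7 and 101 to 617, and those of gastric markers 804 to 1587 and 2376 to 15180. In bulk samples, fewer cells of a type and less RNA per cell cannot be told apart.

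Compared with WT, 4 of the 7 IRF genes were lower in CD1d-KO IECs, namely Irf9, Irf1, Irf7 and Irf3, which fell by 26.7%, 20.7%, 28.5% and 14.3%. None was called higher by DESeq2 or by edgeR, although Irf2 reached an unadjusted p under 0.05 in that direction in both, which makes 1 of 7. Calls here are an adjusted p under 0.05 in the DESeq2 Wald test over 15446 genes, of which 4.03% were called, 2.38% as lower and 1.65% as higher in CD1d-KO. The median log2 fold change was -0.33 over the 7 members and 0.00 over all genes tested. The values of CD1d-KO and WT samples did not overlap for the same 4 members, against 9.61% of all genes tested. Values below are normalised read counts in the order of samples 1 to 4.

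**Figure D1:**
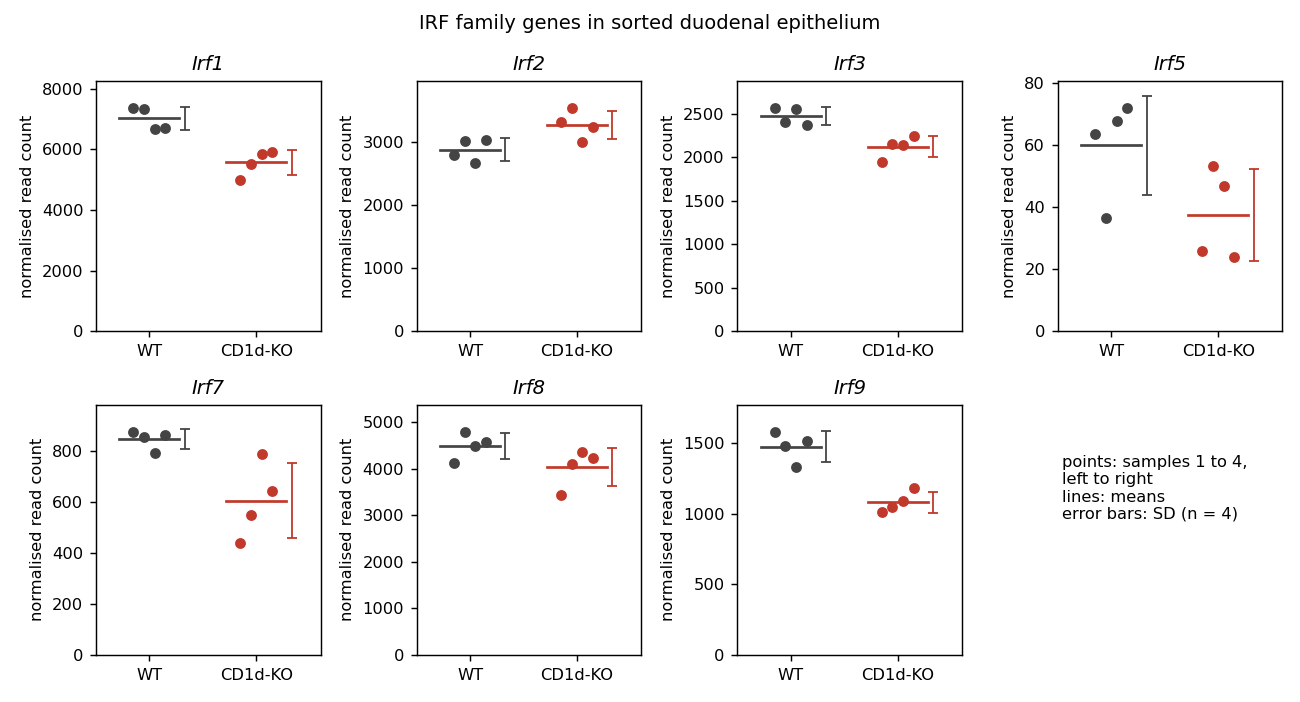
Normalised read count (vertical axes, from 0) of each of the 7 IRF genes in 4 WT (grey) and 4 CD1d-KO (red) samples, with the mean as a line and the SD as an error bar. All CD1d-KO points lie under all WT points for Irf1, Irf3, Irf7 and Irf9, with the narrowest gap for Irf7, between 788 and 791.

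Among the factors tied to the interferon receptors, Irf9 had the clearest difference. Irf9 (chromosome 14, 55603985 to 55610030, plus strand) had 1011, 1047, 1087 and 1182 counts in CD1d-KO against 1582, 1478, 1328 and 1517 in WT. Every CD1d-KO sample lay under the lowest WT sample, WT 3. The means were 1082 ± 73.6 and 1476 ± 108 (SD, n = 4 each), and the log2 fold change was -0.45 (SE 0.08, adjusted p = 9.16e-06, DESeq2). Irf9 was called whichever sample was left out, with log2 fold changes from -0.50 to -0.41, in edgeR (adjusted p = 0.0115), and without the samples that held Y-linked counts (-0.38, adjusted p = 0.0187).

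Irf1, the factor most directly induced by IFN-γ, was the most abundant of the 7 members. Irf1 (chromosome 11, 53770014 to 53778374, plus strand) had 4986, 5510, 5847 and 5919 counts in CD1d-KO against 7368, 7343, 6656 and 6707 in WT. The groups were apart, with CD1d-KO 4 the highest of its genotype and WT 3 the lowest of the other. The means were 5566 ± 426 and 7018 ± 390 (SD, n = 4 each), and the log2 fold change was -0.33 (SE 0.07, adjusted p = 0.000465, DESeq2). The call held with any single sample left out (log2 fold change -0.37 to -0.28) and in edgeR (adjusted p = 0.0324). Without the 2 samples with Y-linked counts the difference was -0.25 and missed the threshold (adjusted p = 0.0647).

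Irf2, which competes with IRF1 for DNA, was the only member with a positive fold change. Irf2 (chromosome 8, 46739745 to 46847458, plus strand) had 3323, 3545, 3006 and 3247 counts in CD1d-KO against 2791, 3015, 2662 and 3040 in WT. CD1d-KO 3 lay under WT 2 and WT 4, so the groups overlapped. The log2 fold change was 0.19 (SE 0.07, 95% interval 0.04 to 0.33, adjusted p = 0.141, DESeq2). Of the 17 alternative analyses it was called in 1, the one without CD1d-KO 3 (adjusted p = 0.0423).

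The kinase-activated factors Irf3 and Irf7 were called lower, with less margin. Irf3, the constitutive factor of this class (chromosome 7, 44997648 to 45002848, plus strand), had 1947, 2157, 2140 and 2239 counts in CD1d-KO against 2568, 2407, 2550 and 2366 in WT. The 2 groups did not overlap, and the difference was the smallest of the called members, with a log2 fold change of -0.22 (SE 0.07, adjusted p = 0.0276, DESeq2). Leaving out any of CD1d-KO 1, CD1d-KO 2, WT 1, WT 2 or WT 3 ended the call (adjusted p = 0.0896 to 0.143), as did edgeR (adjusted p = 0.0908). Without CD1d-KO 1 and 2 together it was -0.17 (adjusted p = 0.421).

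Irf7, itself an interferon-induced gene (chromosome 7, 141263183 to 141266424, minus strand), had 441, 548, 788 and 645 counts in CD1d-KO against 877, 855, 791 and 864 in WT. The CD1d-KO samples spread widely while the WT samples lay close together, with means of 605 ± 148 and 847 ± 38.2 (SD, n = 4 each). CD1d-KO 1 and 2, the samples with Y-linked counts, were the lowest, and CD1d-KO 3 lay just under WT 3. The log2 fold change was -0.48 (SE 0.15, adjusted p = 0.0318, DESeq2). It was -0.24 without CD1d-KO 1 and 2 (adjusted p = 0.438), and without CD1d-KO 3 it was -0.64 (adjusted p = 4.86e-05). The call was lost in edgeR (adjusted p = 0.123) and when CD1d-KO 1, CD1d-KO 2, WT 1, WT 2 or WT 4 was left out (adjusted p = 0.0872 to 0.149).

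Irf5, which acts downstream of Toll-like receptors mainly in myeloid cells, had the lowest counts of the 7 members. Irf5 (chromosome 6, 29526625 to 29541869, plus strand) gave normalised counts of 25.9, 53.3, 46.9 and 24 in the CD1d-KO samples, against 63.8, 36.7, 67.9 and 72.1 for WT. The groups overlapped through WT 2. The log2 fold change was -0.68 (SE 0.33, 95% interval -1.32 to -0.04, adjusted p = 0.282, DESeq2), the largest in size and the least precise of the 7. Counting error alone is 20.0% at the lowest raw count of 25 and 11.9% at the highest of 70. Irf5 was also the only member whose exons overlapped those of another gene, Tnpo3 on the opposite strand, and strand was not used in counting, so its value is uncertain. Tnpo3 had a log2 fold change of 0.05 (adjusted p = 0.767, DESeq2).

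Irf8 (chromosome 8, 120736358 to 120756692, plus strand) had 3439, 4092, 4357 and 4225 counts in CD1d-KO against 4130, 4799, 4489 and 4571 in WT. The groups overlapped, since 2 CD1d-KO samples lay above WT 1. The log2 fold change was -0.16 (SE 0.09, 95% interval -0.33 to 0.01, adjusted p = 0.367, DESeq2), and it was called in none of the 17 alternatives. The markers of myeloid cells, which express Irf8, summed to 806 to 1000 normalised counts in CD1d-KO and 976 to 1537 in WT, and 6 of the 15 on the list had enough counts to be tested. Itgam, which held most of this sum, was called lower (log2 fold change -0.40, adjusted p = 0.0127, DESeq2), and Cd68 had 86.0 to 162 counts in CD1d-KO against 97.9 to 244 in WT. The other markers on the list had at most 70.7 normalised counts in a sample, which was Laptm5 in WT 1. Of these, Csf1r, Adgre1, Xcr1, Clec9a, Siglech and Flt3, had at most 6.72 in any sample. The part of these markers in the Irf8 values was not tested.

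Irf4, a lymphoid factor of the same family outside the 7 members, was at 1, 0, 0 and 0 raw counts in the CD1d-KO samples and at 14, 1, 0 and 0 in the WT samples, and it received no adjusted p. WT 1, which held the 14 counts, also had the highest leukocyte marker score.

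**Figure D2:**
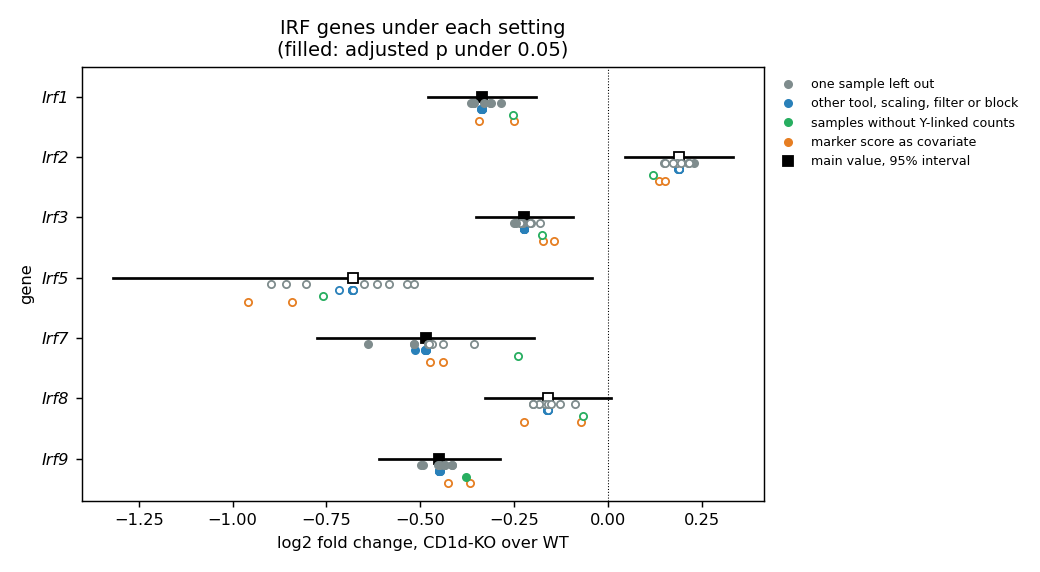
Log2 fold change of CD1d-KO over WT (horizontal axis) for each IRF gene, with the main value as a square, its 95% interval as a line, and the 17 alternative analyses as coloured points. Filled symbols have an adjusted p under 0.05. Every point stays on the side of 0 of its main value, and for Irf9 and Irf1 the symbols are open with a marker score as a covariate and, for Irf1, without the samples that held Y-linked counts.

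Markers of other tissues moved with genotype in these samples, so their values stand beside the calls. Of 12 gastric markers tested, 11 had a log2 fold change below 0. In DESeq2 6 were called lower and 1, Atp4a (0.93), higher, against 2.38% and 1.65% of all genes. The mean gastric marker score was apart between genotypes, from -2.52 to 0.25 in CD1d-KO and from 0.72 to 3.12 in WT, on a log2 scale centred over the 8 samples. With this score in the DESeq2 fit, 0 of 7 members were called, beside 102 of 13995 genes tested. An unadjusted p under 0.05 was reached by 2 of 7 members. The log2 fold changes of Irf9 and Irf1 were then -0.43 (SE 0.17, adjusted p = 0.317) and -0.34 (SE 0.15, adjusted p = 0.389), and the standard errors were larger than without the score. In the same DESeq2 fit Irf7 was at -0.47 (SE 0.28, adjusted p = 0.622) and Irf3 at -0.14 (SE 0.14, adjusted p = 0.826). Without the score these 2 were at -0.48 and -0.22. The leukocyte marker score ran from -0.63 to -0.29 in CD1d-KO and from -0.29 to 1.68 in WT. With it in the fit, 0 of 7 members were called, beside 159 of 16177 genes tested. An unadjusted p under 0.05 was reached by 3 of 7 members. Irf9 was then at -0.37 (SE 0.11, adjusted p = 0.102) and Irf1 at -0.25 (SE 0.10, adjusted p = 0.336). Irf7 was at -0.44 (SE 0.20, adjusted p = 0.567) and Irf3 at -0.17 (SE 0.10, adjusted p = 0.751, DESeq2). Neither score overlapped between genotypes, the nearest leukocyte scores being -0.292 and -0.289, and the part of these markers in the calls was not tested. WT 4 and CD1d-KO 4, which had these nearest leukocyte scores, had 1517 and 1182 counts of Irf9. Their gastric scores were 2.27 and 0.25, and this pair, a single sample of each genotype, was not tested.

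The family members were also compared with each other within a sample, as TPM, in which counts are divided by exon length and scaled to the same total in each sample. Over the 8 samples Irf1 averaged 156 TPM (range 126 to 184), followed by Irf2 at 103 (88.9 to 122), Irf8 at 103 (85.2 to 115) and Irf3 at 87.2 (75.7 to 98.5). Irf9 averaged 39.6 TPM (32 to 49.4), Irf7 32.4 (20.2 to 39.6) and Irf5 1.54 (0.744 to 2.27). Ranges of neighbours in this order overlapped for Irf2 and Irf8, for Irf8 and Irf3, and for Irf9 and Irf7. They did not overlap for Irf1 and Irf2, for Irf3 and Irf9, or for Irf7 and Irf5. Irf1 held 29.8% of the summed TPM of the 7 members and Irf5 0.294%. Irf1 stood at the 92.6th percentile of all genes tested and Irf7 at the 64.3rd.

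**Figure D3:**
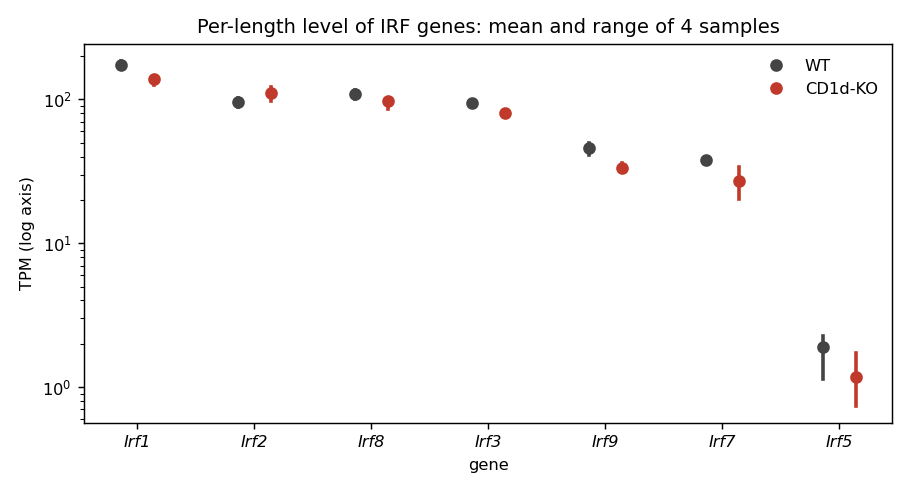
TPM on a log axis for the 7 IRF genes, ordered by mean level, with the mean (point) and range (line) of 4 WT and 4 CD1d-KO samples. Irf5 lies far under the others, and the WT and CD1d-KO ranges are apart for Irf1, Irf3, Irf7 and Irf9, which are lower in CD1d-KO.

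The balance of activator and competitor was examined as the ratio of Irf1 to Irf2 per exon length. The log2 ratio was 0.15, 0.20, 0.52 and 0.43 in CD1d-KO samples 1 to 4 and 0.96, 0.85, 0.89 and 0.71 in WT samples 1 to 4. Every CD1d-KO sample had a lower ratio than every WT sample. On a linear scale the mean ratio was 1.26 (range 1.11 to 1.44) in CD1d-KO and 1.81 (range 1.63 to 1.95) in WT, so Irf1 exceeded Irf2 in each sample. The difference of the log2 means was -0.525, with an exact two-sided permutation p of 0.0286, the smallest that 4 against 4 samples allow, and 0.0571 after adjustment over the 2 ratios examined. Since Irf1 was itself called in these samples, the ratio is not independent of that result. The 2 CD1d-KO samples with Y-linked counts had the lowest ratios, and without them the difference was -0.37, with no overlap and an exact permutation p of 0.133, the smallest that 2 against 4 samples allow.

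The ratio of Irf7 to Irf3, an induced against a constitutive factor of the same class, overlapped between genotypes. The log2 ratio was -1.91, -1.74, -1.21 and -1.56 in CD1d-KO against -1.31, -1.26, -1.45 and -1.22 in WT. CD1d-KO 3 had the highest value of all 8 samples and CD1d-KO 1 the lowest. The difference was -0.29 (exact two-sided permutation p = 0.171).

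**Figure D4:**
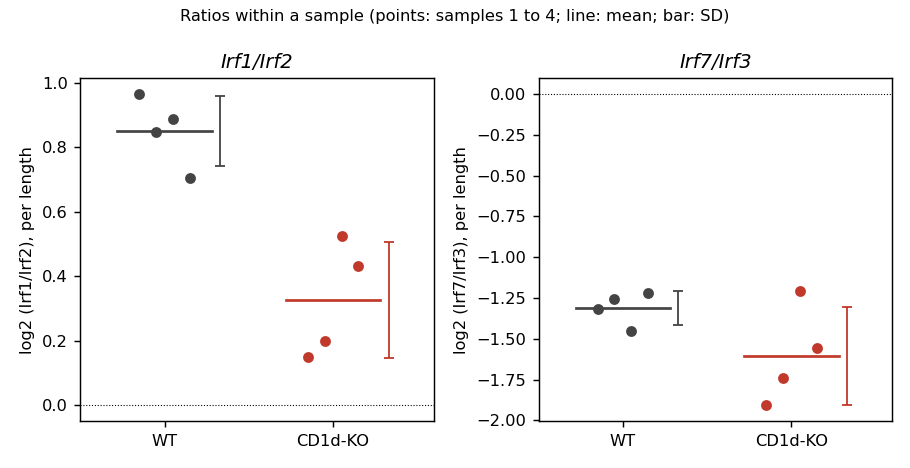
Log2 ratio of Irf1 to Irf2 (left) and of Irf7 to Irf3 (right), per exon length, in each WT and CD1d-KO sample, with the mean as a line and the SD as an error bar. The Irf1/Irf2 values of CD1d-KO (0.15 to 0.52) lie under those of WT (0.71 to 0.96), while the Irf7/Irf3 values overlap.

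Of 19 genes of the interferon receptors, JAK-STAT signalling and its feedback inhibitors, 3 were lower and 1 higher in CD1d-KO. This was 21.1% against 4.03% of all genes, with a list median log2 fold change of -0.08. The lower ones were Socs3, a feedback inhibitor of cytokine signalling (-1.10, SE 0.18, adjusted p = 6.44e-07), Stat2, the partner of IRF9 in ISGF3 (-0.55, SE 0.10, adjusted p = 1.94e-05), and Stat3 (-0.36, SE 0.08, adjusted p = 0.000304, DESeq2). Ifngr1, the ligand-binding chain of the IFN-γ receptor, rose instead, and it is named here after its value was seen (0.26, SE 0.06, adjusted p = 0.00462, DESeq2). The Ifngr1 call held in 12 of 17 alternatives and was lost in edgeR (adjusted p = 0.0644), without CD1d-KO 2 (0.22, adjusted p = 0.0548), without CD1d-KO 1 and 2 (0.18, adjusted p = 0.288), with the gastric score (0.10, adjusted p = 0.871) and with the leukocyte score (0.29, adjusted p = 0.126). Stat2 had 947, 963, 1269 and 1219 counts in CD1d-KO against 1673, 1614, 1602 and 1555 in WT, so the 2 groups were apart by a wide gap. Stat2 exons overlap those of Apof, which makes its count less certain.

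Of the 20 tested sensors, adaptors and kinases upstream of IRF3, IRF5 and IRF7, 2 (10%) were lower in DESeq2, against 2.38% of all genes. In DESeq2 or edgeR 0 were higher (0 at an unadjusted p under 0.05), and the median log2 fold change was -0.10. Ikbke encodes IKKε, a kinase that phosphorylates IRF3 and IRF7, and Sting1 the adaptor of cytosolic DNA sensing. Ikbke had a log2 fold change of -0.32 (SE 0.07, adjusted p = 0.00123) and Sting1 of -0.92 (SE 0.22, adjusted p = 0.00178, DESeq2). Sting1 was at a low level, with 56.6 to 118 counts in CD1d-KO and 149 to 202 in WT. Zbp1, a nucleic acid sensor, had -0.84 (SE 0.28, adjusted p = 0.0568). The interferon genes examined, Ifnb1, Ifna4, Ifnl2, Ifnl3 and Ifng, were not detected as expressed. Other interferon genes were not examined. The 4 type I and type III interferon genes of the list had 0 counts in all 8 samples, which allows up to 3 counts per sample, and Ifng had counts in 1 WT sample only, 3 in number in WT 1.

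Of 12 tested partners and co-regulators of IRFs, 2 (16.7%) were lower in DESeq2, against 2.38% of all genes. In DESeq2 or edgeR 0 were higher (1 at an unadjusted p under 0.05), and the median log2 fold change was -0.06. Batf2, a leucine-zipper protein that cooperates with IRF1, had a log2 fold change of -0.53 (SE 0.12, adjusted p = 0.00039), and Rbck1 had -0.18 (SE 0.06, adjusted p = 0.0455, DESeq2). The Rbck1 call was lost with any single sample left out (adjusted p = 0.0651 to 0.28). Irf2bp2, an IRF2-binding corepressor, had 0.17 (SE 0.06, adjusted p = 0.0803, DESeq2). For receptors and JAK-STAT genes, sensors, and partners in turn, the number called lower was 1, 1 and 0 without the samples with Y-linked counts, 1, 1 and 0 with the gastric score, and 0, 0 and 1 with the leukocyte score. It was 5 for the JAK-STAT list without CD1d-KO 3, and 1 for the partners with any single sample left out. Over all genes, 196, 55 and 105 were called lower without the samples with Y-linked counts, with the gastric score and with the leukocyte score.

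Downstream of IRF1, 10 of 31 genes (32.3%) on a list of IFN-γ and IRF1 targets were lower in DESeq2, against 2.38% of all genes. In DESeq2 or edgeR 0 were higher, with 0 higher at an unadjusted p under 0.05. The median log2 fold change was -0.72, and 28 of the 31 had a value below 0. Nos2, the inducible nitric oxide synthase, had 620, 683, 831 and 426 counts in CD1d-KO against 2736, 2141, 2908 and 1707 in WT. The log2 fold change was -1.89 (SE 0.25, adjusted p = 5.2e-11, DESeq2). Every CD1d-KO sample was far under the lowest WT sample, and the call held in all 17 alternatives. Psmb10, an immunoproteasome subunit, had -0.39 (SE 0.09, adjusted p = 0.00049), and Tap1, a subunit of the peptide transporter for antigen presentation, had -0.68 (SE 0.15, adjusted p = 0.000639, DESeq2). The number called lower was 7 without the samples with Y-linked counts, 4 in edgeR, 1 with the gastric score and 2 with the leukocyte score. With 1 sample left out it ranged from 5 to 13, and it moved by over 1.5 times without WT 2 (5), WT 4 (6) and CD1d-KO 2 (6). Over all genes, the numbers called lower were 196 of 14473 without the samples with Y-linked counts and 147 of 13744 in edgeR. They were 55 of 13995 with the gastric score and 105 of 16177 with the leukocyte score.

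On a list of 32 ISGF3 targets, 6 (18.8%) were lower in DESeq2, against 2.38% of all genes. In DESeq2 or edgeR 0 were higher (0 at an unadjusted p under 0.05). The median log2 fold change was -0.46, with 28 values below 0. Beside Stat2, which is on both lists, the leading genes were Uba7, the activating enzyme of the ubiquitin-like modifier ISG15 (-0.60, SE 0.11, adjusted p = 2.38e-05), and Parp14 (-0.53, SE 0.11, adjusted p = 8.17e-05, DESeq2). The number called lower was 3 without the samples with Y-linked counts, 3 in edgeR and 0 with either marker score. With 1 sample left out it ranged from 3, without CD1d-KO 2, to 11, without CD1d-KO 3. With these scores in the fit, calls over all genes numbered 102 for the gastric and 159 for the leukocyte score, of which 55 and 105 were lower. The target lists hold known interferon-stimulated genes, and near-identical copies among guanylate-binding and Oas genes may have shared reads.

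**Figure D5:**
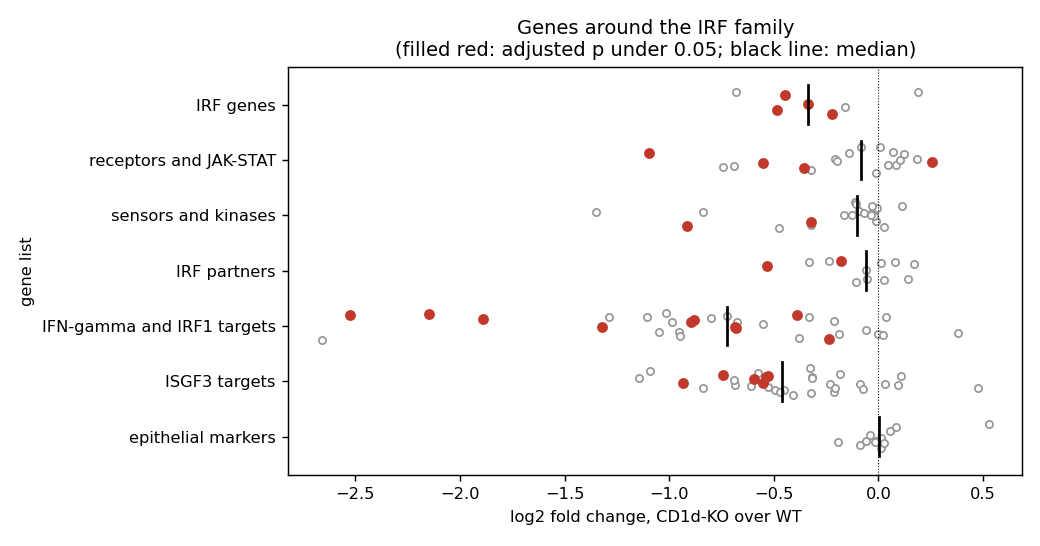
Log2 fold change of CD1d-KO over WT (horizontal axis) for each tested gene of 7 lists (rows), filled red at an adjusted p under 0.05, with the list median as a black line. The target lists have medians of -0.72 and -0.46, and the epithelial markers centre at 0.00.

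The promoter letters were counted over the same lists. Among the 18 genes of the IFN-γ and IRF1 target list with a RefSeq window, 9 held an ISRE match and 5 a GAS match. The ISGF3 list had 22 genes with a window, of which 10 held an ISRE match and 6 a GAS match. Among all 27025 genes with a window, 3.99% held an ISRE match and 9.55% a GAS match. The lists were written from genes known to respond to interferon, so these shares describe the lists and were not tested.

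Finally, the genes whose pattern over the 8 samples was most like each called member were found among 11720 genes, by the root mean square difference of centred log2 values. For Irf1 they were Slc35f2 (0.041), Rnf31 (0.049) and Alkbh7 (0.059). For Irf9 they were H2-Q4 (0.061), Zfp142 (0.069) and Mst1r (0.078). For Irf3 they were Zc3h7a (0.043), Creb3 (0.046) and Taf1c (0.046). For Irf7 they were the class I gene H2-D1 (0.11), Psme2b (0.11) and Parp14 (0.11), with larger differences than for the other 3 members. H2-D1, H2-Q4 and Psme2b have close sequence relatives, and the exons of Alkbh7, Creb3, Taf1c, H2-D1 and Psme2b overlap those of another gene, so their counts are less certain.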

How the data were processed

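Bulk poly(A) RNA-seq of sorted IECs was analysed in 4 CD1d-KO and 4 WT samples, grouped by their labels. The authors deposited raw counts of read pairs per gene, made with featureCounts 1.6.4 over exons without strand, with pairs that overlapped several genes left out. The file header names an mm10 annotation and the methods name HISAT2 alignment to GRCm39. Coordinates here are the table's, in mm10. The table had 0 unused per-sample columns.

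Genotypes were compared with DESeq2 1.42.0 (R 4.3.3), the study's tool, over the whole table, with DESeq2's own size factors and outlier rule, independent filtering and Benjamini-Hochberg adjustment over 15446 genes. Independent filtering acted at a mean normalised count of 2.41. TPM was computed from the counts and the exon lengths in the table. Ratios were compared by exact permutation tests (scipy 1.17.1). Alternatives were edgeR 4.0.16, TMM factors, size factors without the 50 most abundant genes, a filter of 10 counts in 4 samples, no filter, leaving out each sample, a replicate block, leaving out samples with Y-linked counts, and gastric or leukocyte marker scores as covariates. The fits were tested on simulated data. Intervals are 95% and counting error covers counting only.

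Named genes were all members, Irf4, the 3 genes most like each called member (mean normalised count 50 or more, pseudocount 1), the 3 genes of each discussed list with the most extreme Wald statistic, and genes with exons over a member's. Some genes under this rule are not reported here. Members and lists were chosen with earlier results of these data known, and lists were written by hand.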

Additional observations from a re-analysis of the deposited data

How the results depend on the processing

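The number of IRF genes called, 4 in DESeq2, was 2 in edgeR, 1 without the samples that held Y-linked counts, and 0 with the gastric and 0 with the leukocyte marker score as a covariate. It ranged from 2 to 5 when 1 sample was left out, falling to 2 on removal of CD1d-KO 1 or 2 or of WT 1 or 2. It stayed at 4 with TMM factors, with size factors that skipped the 50 most abundant genes, and with or without a filter on low counts. Of 119 log2 fold changes of the 7 members under these alternatives, 94 kept their direction and side of the threshold, 24 kept the direction and lost the threshold, 1 gained it and 0 reversed. The 94 include values of Irf2, Irf5 and Irf8, which had no call in the main fit to lose. These were called in 1, 0 and 0 of 17 alternatives. Of the members called in the main fit, Irf9 was called in 15 of 17 alternatives, Irf1 in 14, Irf7 in 8 and Irf3 in 7. The cause of the lost calls was not tested.

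The log2 Irf1/Irf2 difference of -0.525 ranged from -0.59 to -0.47 with a sample left out, where 0.0571 was both the exact permutation p and the smallest possible, and it was -0.37 without the samples with Y-linked counts (p = 0.133, the smallest that 2 against 4 samples allow). Replicate numbers in the labels name samples only. Same-numbered samples had correlations of deviations from -0.04 to 0.15 across genes, and differently numbered samples from -0.19 to 0.17. With only 4 same-numbered pairs, these values cannot decide whether the numbers pair the samples. With the replicate block, 3 members were called, Irf3 being lost (adjusted p = 0.0978), calls over all genes went from 622 to 569, and the paired Irf1/Irf2 difference was -0.525 with an exact sign-flip p of 0.125, the smallest that 4 pairs allow. Over all genes, calls numbered 228 in edgeR, 372 without the samples with Y-linked counts, 102 and 159 with the gastric and leukocyte scores, and 323 to 646 with 1 sample left out. Counting error limits Irf4, which had at most 14 counts in a sample.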
